A study of Mus musculus with 4 samples.

Results

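The heme synthesis and iron uptake genes described here are 9 of the 21147 mouse genes that could be named on the array. They are Alas1, Alas2, Alad, Uros, Urod, Cpox, Ppox, Fech and Tfrc, and they were chosen by their place in the pathway. Every probe whose transcript accession carried one of these symbols in RefSeq was taken, which gave 13 probes. LSK cells are marrow cells without Lineage markers that carry c-Kit and Sca-1, a fraction rich in stem cells, and MEP cells are the progenitors of megakaryocytes and red cells. Both were sorted after JQ1 or after its solvent DMSO, which gave 4 groups. JQ1 blocks the acetyl-lysine pocket of the BET bromodomain proteins. All groups were C57BL/6 cells of genotype JAK2V617F/Ezh2Δ/Δ, so per the labels the DMSO controls also carried the mutant kinase and the Ezh2 deletion. The cells came from recipients of JAK2V617F;Ezh2flox/flox;Cre-ERT2 marrow, which were lethally irradiated wild-type CD45.1+ mice, and Ezh2 was deleted in them before 2 weeks of JQ1 or DMSO. The age of the mice and the number of mice behind each array are not given in the sources used here, nor is the promoter that drives the Cre. Each group had 1 array, so there was no replicate, no test and no p-value, and every difference compares 2 arrays.

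Heme is made in a chain that starts and ends in mitochondria. Alas1 and Alas2 catalyse the first and rate-setting step, Alas1 in most tissues and Alas2 in erythroid cells. Alad, Uros and Urod act in the cytosol, and Cpox, Ppox and Fech complete the ring and insert iron. The transferrin receptor Tfrc brings that iron into the cell, and red cell precursors need most of it for hemoglobin.

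MEP cells had more signal than LSK cells for most of these genes, and Cpox had the largest difference of the measured members in each comparison that involved MEP cells. Differences are given as log2 values relative to the median measured gene of a comparison, and 2-fold corresponds to 1. A gene was measured where its brightest probe was well above background on both arrays, which held for 8 of the 9 members in each comparison. In LSK cells 0 of 8 members differed by 2-fold or more between JQ1 and DMSO, where 0.544% of all 12324 measured genes were higher and 3.22% lower. In MEP cells 1 of 8, Cpox, was higher after JQ1 by 2-fold and none was lower, where 0.98% of 12546 genes were higher and 5.77% lower. Under DMSO 2 of 8, Cpox and Tfrc, were higher in MEP than in LSK, beside 5.68% of 12403 genes higher and 4.32% lower. Under JQ1 4 of 8 (Alad, Cpox, Fech and Tfrc) were higher in MEP, beside 3.94% of 12260 genes higher and 4.01% lower. The member medians in these comparisons were -0.04, 0.30, 0.80 and 0.91, and the middle 50% of all genes ran from -0.18 to 0.15, -0.32 to 0.24, -0.30 to 0.34 and -0.26 to 0.23. Members above the median gene numbered 3, 6, 7 and 8 of 8. The comparisons share arrays, so these counts are not independent of each other.

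Of the 4 arrays DMSO MEP was the least like the others, with correlations of 0.973 to 0.976 against 0.979 to 0.991 among the rest. JQ1 in LSK and the cell types under JQ1 are the comparisons that do not use it. Between 45.2% and 53.2% of 55681 probes were well above background per array and no spot was saturated. The median measured gene itself differed after scaling to the 75th percentile, by 0.06 and 0.34 for JQ1 in LSK and MEP, and by -0.22 and 0.07 for the cell types under DMSO and JQ1. The split of higher and lower genes for JQ1 in MEP, 123 and 724 here, became 374 and 366 without centring and 35 and 2198 with spike-in scaling. For MEP against LSK under DMSO the split of 705 and 536 became 5299 and 75 with spike-in scaling. Different probes of a gene gave differences that varied with an SD of 0.26, 0.39, 0.37 and 0.27 in these comparisons. That SD holds array error and differences between probes on the same arrays, and it does not cover variation between samples. In bulk samples fewer cells of a type and less RNA per cell cannot be told apart. Of the sort and lineage markers, Ly6a (Sca-1) read 4710 and 4740 in LSK against 263 and 271 in MEP, and the erythroid and megakaryocytic regulator Gata1 read 1659 and 1720 against 13547 and 20100. Other markers went the other way, as the stem cell gene Slamf1 was higher in MEP by 2.35 and 1.18 under DMSO and JQ1 and the globin gene Hbb-bt read -1.45 and -0.80. Ezh2 read 2164 to 3235 over the 4 arrays, and whether its probe covers the exons that were removed is not known here.

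Promoters of the members are shown for the windows that hold letters bound by GATA1, the main erythroid transcription factor. The windows are the 250 bases before a RefSeq transcript start (build GRCm38.p6), written 5′ to 3′ on the strand of the gene. The letters searched on both strands were AGATAA with either A or T as the first base and either A or G as the last, and capitals mark a match on either strand. Of 12 windows found for 8 members, 3 held a match, in Alas2, Cpox and Uros, where 8718 of 32851 mouse windows (26.5%) did. The Cpox window (chr16:58669958-58670207, plus strand) is the one of the gene with the largest JQ1 difference among the 8 measured members. The Alas2 window (chrX:150547167-150547416, plus strand) belongs to the erythroid synthase. The Uros window (chr7:133702501-133702750, minus strand) belongs to the downstream of its 2 starts.
Cpox: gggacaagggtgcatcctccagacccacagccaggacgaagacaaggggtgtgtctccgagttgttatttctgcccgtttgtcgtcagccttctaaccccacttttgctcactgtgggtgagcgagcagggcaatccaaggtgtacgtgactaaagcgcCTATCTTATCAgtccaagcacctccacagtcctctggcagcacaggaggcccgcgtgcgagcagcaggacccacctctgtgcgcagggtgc
Alas2: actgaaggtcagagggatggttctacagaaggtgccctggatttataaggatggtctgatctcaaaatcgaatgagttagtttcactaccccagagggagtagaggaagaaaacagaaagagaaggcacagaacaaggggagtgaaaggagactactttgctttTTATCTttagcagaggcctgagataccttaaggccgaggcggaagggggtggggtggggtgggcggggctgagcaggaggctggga
Uros: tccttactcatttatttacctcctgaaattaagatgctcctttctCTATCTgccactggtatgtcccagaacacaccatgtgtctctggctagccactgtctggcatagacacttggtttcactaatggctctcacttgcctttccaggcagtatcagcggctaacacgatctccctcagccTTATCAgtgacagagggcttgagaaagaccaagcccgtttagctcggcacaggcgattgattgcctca
In Cpox the 2 matches overlapped, 91 and 86 bases before the start. The single Alas2 match lay 86 bases before the start, and the Uros matches lay 205 and 68 bases before it. Windows with 2 or more matches made up 6.4% of all windows. No match was found in the windows of Alas1, Alad, Ppox, Tfrc and Urod or at the upstream Uros start, which says only that these letters are not in these windows. The letters CCNCNCCC, bound by Klf1 and related factors, were in 8 of the 12 windows and in 45.9% of all, 4 times in Alas2 and not in Cpox. The windows of Alad overlap in part, as do those of Alas1 and of Tfrc, and each of these held a match. The 12 windows are therefore not separate from each other. A match is a description of the letters and not a measured binding site.

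Alas1, the general synthase of the first step, read lower with JQ1 than with DMSO in LSK cells and higher in MEP cells, by less than 2-fold each. Its brightest probe read an intensity of 17169.5 in DMSO LSK, 12944 in JQ1 LSK, 12899.8 in DMSO MEP and 17964 in JQ1 MEP. Scaled to each array's 75th percentile these levels were 6.35, 5.73, 5.30 and 6.27 on the log2 scale. The DMSO LSK and JQ1 MEP arrays were thus high and close to each other, while DMSO MEP was lowest. Relative to the median gene the JQ1 difference was -0.69 in LSK (1.61-fold lower) and 0.63 in MEP (1.54-fold higher). MEP against LSK gave -0.83 under DMSO and 0.47 under JQ1, and Alas1 was the only one of the 8 members below the median gene in the DMSO comparison. With scaling to spike-in probes instead, the JQ1 differences were -0.05 and 0.10 and the DMSO cell type difference turned to 0.08. Without centring the latter was -1.05, past 2-fold, and with scaling to the array median -1.15.

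A second, dimmer Alas1 probe did not give the same picture in MEP cells. It read 147, 138, 218 and 194 in the order of arrays above. Its JQ1 differences were -0.37 in LSK and -0.02 in MEP, and its cell type differences were 0.15 under DMSO and 0.49 under JQ1. Relative to the median gene both probes were therefore lower with JQ1 in LSK and higher in MEP than in LSK under JQ1, but the comparisons that use the DMSO MEP array rested on the brighter probe. With the mean over both probes no member had JQ1 differences of opposite sign that each exceeded the SD between probes, against 1 (Alas1) with the brightest probe.

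**Figure D1:**
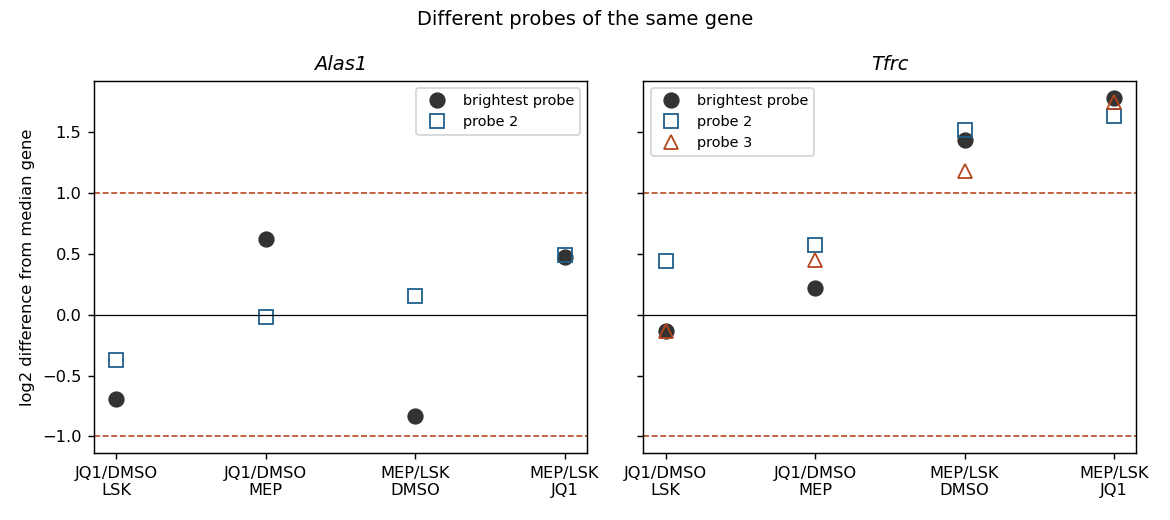
Log2 difference from the median measured gene (vertical axis) in the 4 comparisons (horizontal axis) for each probe of Alas1 (left) and Tfrc (right). Filled circles are the brightest probe, open symbols the other probes, and dashed lines mark 2-fold. The Alas1 probes lie apart in the comparisons with the DMSO MEP array (0.63 and -0.02, -0.83 and 0.15), while all 3 Tfrc probes lie above 1 for MEP against LSK; with spike-in scaling, not drawn, the brightest Alas1 probe turns from -0.83 to 0.08.

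Alas2, the erythroid synthase, was measured on a single array. Its only probe read 5.0 in DMSO LSK, 4.36 in JQ1 LSK, 4.96 in DMSO MEP and 32.3 in JQ1 MEP, and only the last was well above background, with a software error of 17.4%. The lowest signals of any probe well above background on the other 3 arrays were 17.9, 12.0 and 8.96. If the limit of this probe is no higher than that of the dimmest one, JQ1 MEP was at least 4.0-fold higher than DMSO MEP and at least 2.70-fold higher than JQ1 LSK, relative to the median gene. With spike-in scaling these folds were 2.78 and 2.29. The limit of this probe itself is not known, and where it lies higher the folds are smaller. It was 1 dim spot, and no second probe was on the array.

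The enzymes of the cytosolic middle steps were higher in MEP than in LSK cells and lay within 0.31 of the median gene between JQ1 and DMSO. Alad, which joins pairs of aminolevulinate into porphobilinogen, read 1901 in DMSO LSK, 2181 in JQ1 LSK, 4568 in DMSO MEP and 5093 in JQ1 MEP. Both MEP arrays lay above both LSK arrays, and relative to the median gene MEP exceeded LSK by 0.85 under DMSO (1.80-fold) and by 1.22 under JQ1 (2.33-fold). JQ1 against DMSO gave -0.08 in LSK and 0.31 in MEP, and spike-in scaling turned these signs to 0.55 and -0.22. A second Alad probe was near background (19.0 to 33.8) and read -0.39 for MEP against LSK under JQ1, opposite to the bright probe.

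Uros and Urod act later in the cytosol and were also higher in MEP cells. Uros, which closes the ring, read 816 in DMSO LSK, 1049 in JQ1 LSK, 2132 in DMSO MEP and 1566 in JQ1 MEP. Both MEP arrays lay above both LSK arrays, with a difference of 0.97 under DMSO (1.96-fold), just under the 2-fold line, and 0.58 under JQ1. It was past 2-fold under DMSO in 3 of the 7 settings that centre on the median gene, over a range of 0.95 to 1.11. Its JQ1 difference was 0.08 in LSK and -0.30 in MEP, the lowest of the 8 members there. The MEP value was 0.04 before centring, 0.46 with scaling to the array median and -0.82 with spike-in scaling. Urod, which trims the side chains of the ring, read 11458 in DMSO LSK, 13909 in JQ1 LSK, 20444 in DMSO MEP and 22574.5 in JQ1 MEP. Its MEP arrays were again above its LSK arrays. Its MEP to LSK differences of 0.42 under DMSO and 0.70 under JQ1 were smaller than those of Alad, and its JQ1 differences were -0.00 in LSK and 0.29 in MEP, which spike-in scaling turned to 0.63 and -0.23.

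**Figure D2:**
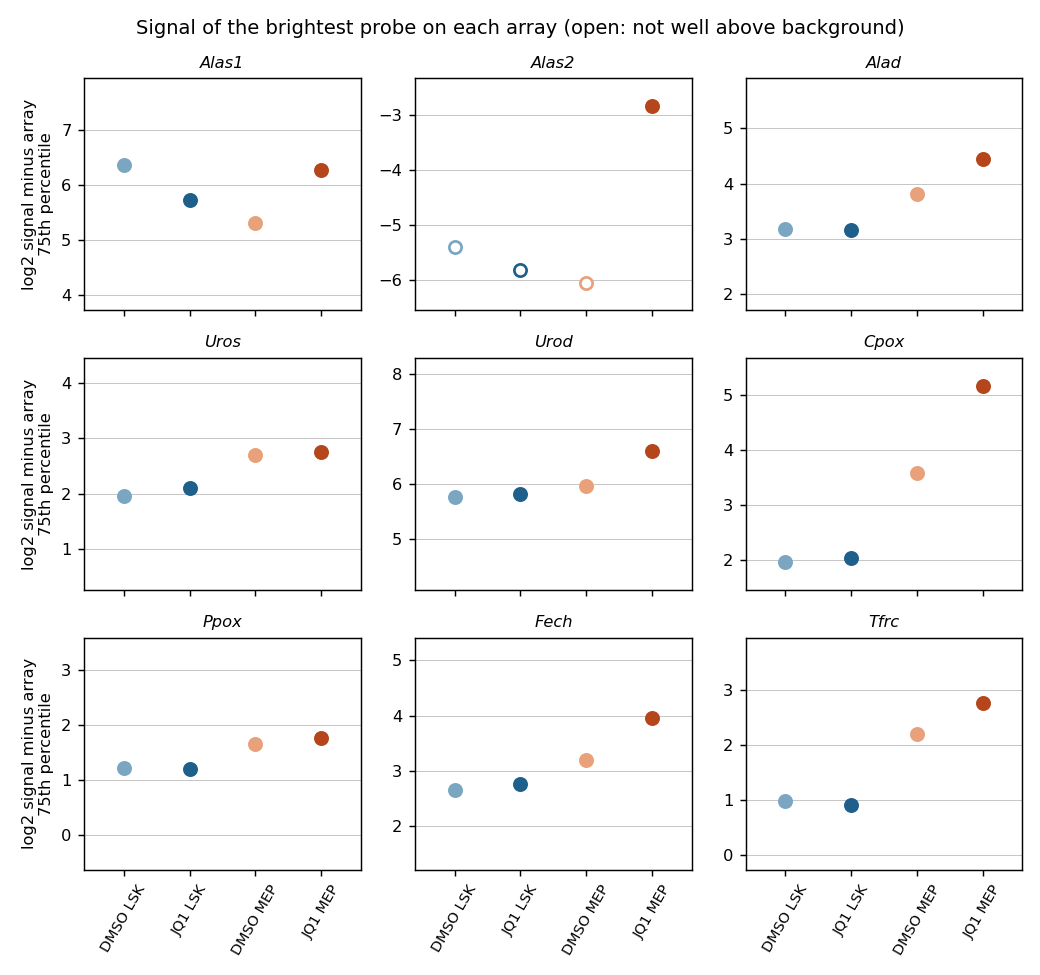
Log2 signal minus the array's 75th percentile (vertical axis, each panel spanning the same number of log2 units) of the brightest probe on the 4 arrays (horizontal axis), 1 point per array, for the 9 members. Open circles are readings not well above background. Cpox runs from 1.97 to 5.15 and Alas1 is lowest on the DMSO MEP array (5.30); these levels depend on the scaling, and with spike-in scaling DMSO MEP exceeds DMSO LSK for Alas1 by 0.08.

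Cpox, which makes protoporphyrinogen in the space between the mitochondrial membranes, had the widest range of the 8 measured members. It read 826 in DMSO LSK, 1007 in JQ1 LSK, 3905 in DMSO MEP and 8256 in JQ1 MEP. The LSK arrays were low and alike, and the JQ1 MEP array was highest. JQ1 against DMSO gave 0.01 in LSK and 1.23 in MEP (2.34-fold), which placed Cpox 66th from the top of 12546 genes. With spike-in scaling the MEP difference was 0.70, still higher but under 2-fold. MEP exceeded LSK by 1.82 under DMSO (3.54-fold, 174th of 12403 genes) and by 3.03 under JQ1 (8.19-fold, 49th of 12260). Over the 7 centred settings the JQ1 difference in MEP ran from 1.01 to 1.26 and the cell type differences from 1.78 to 1.97 and from 2.95 to 3.04. Apart from rounding, only quantile normalization and normexp correction changed more than the constant subtracted. The narrow range over the other settings was thus built in. The gene has 1 probe, so no second probe bears on these values. The 2 JQ1 differences of Cpox were 1.22 apart.

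Ppox, which oxidises protoporphyrinogen, and Fech, the ferrochelatase that inserts iron, did not follow Cpox past 2-fold with JQ1. Ppox read 489.7 in DMSO LSK, 561 in JQ1 LSK, 1029 in DMSO MEP and 786 in JQ1 MEP. Its JQ1 differences were -0.09 in LSK and -0.24 in MEP, and 0.55 and -0.76 with spike-in scaling. The MEP value was 0.10 before centring, and MEP exceeded LSK by 0.65 and 0.49 under DMSO and JQ1. Fech read 1329.6, 1657, 2995 and 3627 in the same order of arrays. Both MEP arrays were above both LSK arrays, by 0.75 under DMSO (1.68-fold) and 1.13 under JQ1 (2.19-fold). Its JQ1 difference was 0.04 in LSK and 0.43 in MEP, the latter turning to -0.10 with spike-in scaling. Cpox apart, the JQ1 differences of the members in MEP ran from -0.30 to 0.63 and only Alas1 and Fech exceeded the SD between probes of 0.39.

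**Figure D3:**
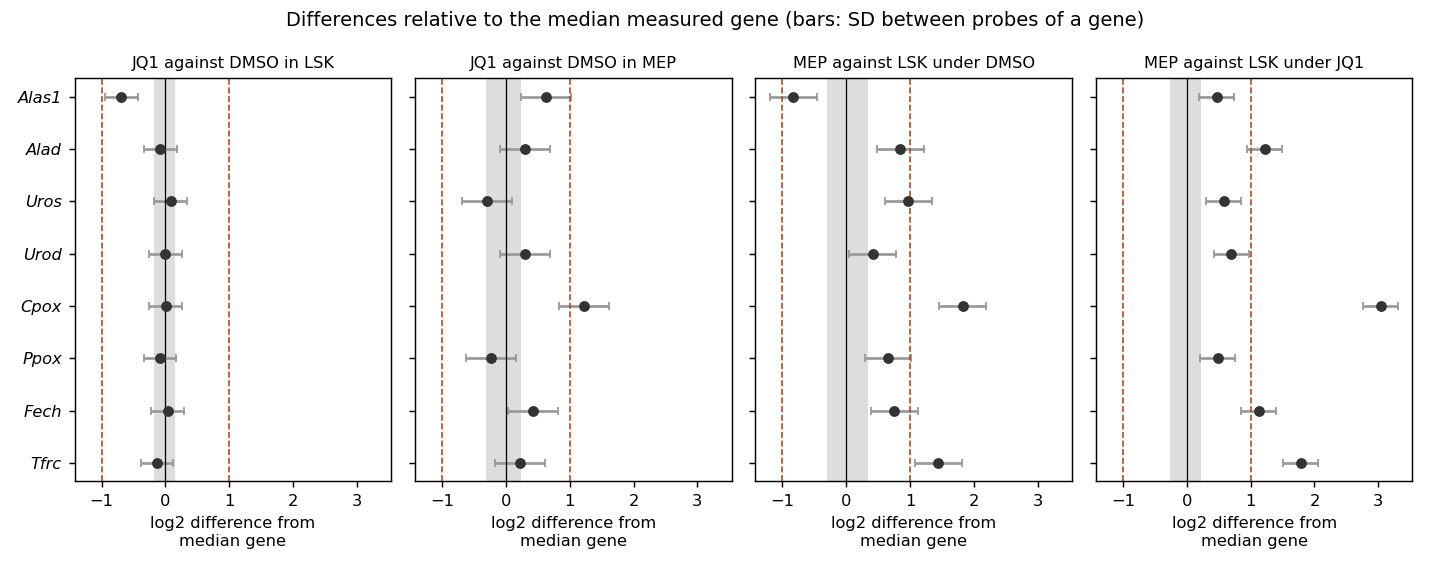
Log2 difference from the median measured gene (horizontal axis) for the 8 measured members in the 4 comparisons. Bars are the SD between different probes of a gene, the grey band is the middle 50% of all measured genes and dashed lines mark 2-fold. Cpox lies at 1.23, 1.82 and 3.03 in the comparisons with MEP cells and at 0.01 for JQ1 in LSK; with spike-in scaling, not drawn, Alad, Urod, Fech and Tfrc fall below 0 for JQ1 in MEP, and Alas1 rises above 0 for MEP against LSK under DMSO.

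Tfrc, the receptor that takes up transferrin-bound iron, was higher in MEP than in LSK cells by more than 2-fold with each of its 3 probes. Its brightest probe was printed in 10 spots per array. Its mean intensity was 416 in DMSO LSK, 461 in JQ1 LSK, 1507 in DMSO MEP and 1586 in JQ1 MEP. The SD over the 10 spots was 0.036 to 0.076 log2, which is scatter on the array and not between samples. Spots ran from 403 to 512 on the LSK arrays and from 1411 to 1721 on the MEP arrays, in intensities before scaling. MEP exceeded LSK by 1.44 under DMSO (2.71-fold) and 1.78 under JQ1 (3.44-fold). The other 2 probes gave 1.52 and 1.18 under DMSO and 1.64 and 1.75 under JQ1. JQ1 against DMSO gave -0.13 in LSK (0.50 with spike-in scaling), where a dim probe read 0.44 and another -0.14. In MEP the 3 probes gave 0.22, 0.57 and 0.45, and the first turned to -0.30 with spike-in scaling.

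Beyond the members, 72 further genes of iron and heme handling were named on the array, and they were compared with the shares past 2-fold among all genes. After JQ1 in LSK 0 of 62 measured genes were higher and 1 lower, and in MEP 1 of 63 was higher and 1 lower. For MEP against LSK 6 of 62 were higher and 1 lower under DMSO, and 10 of 62 were higher and none lower under JQ1. In either direction these were 1.61%, 3.17%, 11.3% and 16.1% of the measured genes, where all genes gave 3.77%, 6.75%, 10.01% and 7.95%. Their medians were -0.02, 0.17, 0.22 and 0.21, lower than those of the members in the comparisons of cell types. The genes that assemble iron-sulfur clusters, which share mitochondrial iron with Fech, had 0 of 14 past 2-fold in each of the 4 comparisons.

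The transport genes past 2-fold sat mainly in MEP cells. Tspo2, an erythroid membrane protein related to the mitochondrial translocator protein, read 286 in DMSO LSK, 142 in JQ1 LSK, 7787 in DMSO MEP and 6364 in JQ1 MEP. It was higher in MEP by 4.35 and 5.49 under DMSO and JQ1, and lower after JQ1 in LSK by 2-fold (-1.30). With spike-in scaling the median gene for JQ1 in LSK lay at 0.63, so the Tspo2 difference there was still negative but under 2-fold. Slc25a38, which brings glycine into mitochondria for the first step of heme synthesis, was higher in MEP by 1.17 and 1.30. The second transferrin receptor Tfr2 was higher by 1.30 under DMSO and 1.05 under JQ1. Steap3, the endosomal ferrireductase, gave 0.90 and 1.62, and Abcb10, a mitochondrial transporter that binds the iron importer Slc25a37, gave 0.98 and 1.54. Slc11a2, which carries iron out of the endosome, gave 0.90 and 1.53 with its bright probe, whereas its dim probe gave -0.14 and 0.38. Slc25a37, mitoferrin-1, did not pass 2-fold, at 0.79 under DMSO and 0.22 under JQ1. Its JQ1 difference in MEP was -0.52 with the bright probe and -1.16 with a second one. The first was -0.19 before centring and lay above 0 with scaling to the array median, where the median gene lay at 0.75. With spike-in scaling the median gene lay at -0.52, so the bright probe lay further below 0.

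Of the genes of heme export, binding and breakdown, 2 of 9 measured were higher in MEP cells by 2-fold under either treatment. Blvrb, a biliverdin reductase of red cells, exceeded LSK by 3.06 and 3.34 under DMSO and JQ1, and the heme-binding protein gene Hebp1 by 1.62 and 2.09. Ferroportin, Slc40a1, which exports iron, read 84.5 in DMSO LSK, 51.7 in JQ1 LSK, 489 in DMSO MEP and 657 in JQ1 MEP. The MEP arrays were higher by 2.11 under DMSO and 3.67 under JQ1. JQ1 differences of ferroportin were -0.99 in LSK and 0.58 in MEP, the same directions as the bright Alas1 probe, and with spike-in scaling -0.36 and 0.05. The endocytic receptor gene Lrp1 was the one iron or heme gene lower in MEP by 2-fold under DMSO (-1.003), and 22 of 62 lay below the median gene.

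A pair of genes outside the pathway's enzymes passed 2-fold with JQ1 in MEP cells. Fbxl5, the iron-sensing subunit that marks iron regulatory protein 2 for degradation, read 253 in DMSO LSK, 272 in JQ1 LSK, 664 in DMSO MEP and 258 in JQ1 MEP. Only the DMSO MEP array was high, and the JQ1 difference in MEP was -1.21. Before centring its scaled levels were 1.02 in DMSO MEP and 0.15 in JQ1 MEP, less than 2-fold apart. With spike-in scaling, where the median gene lay at -0.52, the difference lay further below 0. Erfe, the erythroid hormone that lowers hepcidin, was not well above background in LSK cells. Its 10-spot probe read 42.4 in DMSO MEP and 104 in JQ1 MEP, a difference of 1.44, but its other probe gave -1.32, so its direction was not settled. Hmox1, the inducible heme oxygenase, gave 0.24 in LSK and -0.80 in MEP. A second, dimmer Hmox1 probe gave -0.09 in LSK, opposite in sign, and -0.64 in MEP.

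**Figure D4:**
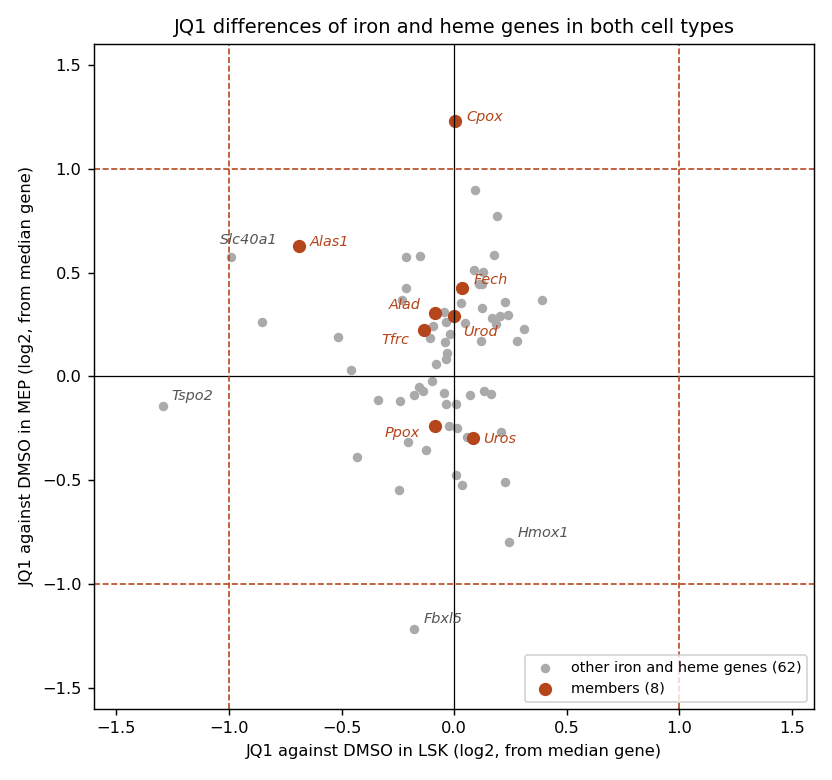
JQ1 difference in MEP (vertical axis) against that in LSK (horizontal axis), both as log2 differences from the median measured gene, for 8 members (large points) and 62 other iron and heme genes measured on all 4 arrays (small points). Dashed lines mark 2-fold. Cpox lies high on the vertical axis at 0.01 in LSK and 1.23 in MEP, and Alas1 and Slc40a1 are left of and above the origin; with spike-in scaling Alas1 moves to -0.05 and 0.10.

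Markers of cell types also differed between the arrays, and not all lists went in the direction of the members. Over the erythroid list the summed signal, in multiples of the array's 75th percentile, was 240 in DMSO LSK, 263 in JQ1 LSK, 281 in DMSO MEP and 441 in JQ1 MEP. Without Hbb-bt, which went against the list, it was 81.4, 94.3, 231 and 340.1. For MEP against LSK the list median was 2.61 under DMSO and 2.99 under JQ1, with 12 of 13 and 11 of 12 measured genes above the median gene. The erythroid regulators Gata1 and Klf1 were higher in JQ1 MEP than in DMSO MEP by 0.72 and 0.75, and the alpha globin gene Hba-a1 by 1.45. Of 17 measured erythroid genes 14 lay above the median gene in that comparison, with a median of 0.47 and 1 past 2-fold. The granulocyte list summed to 1756, 1118, 1253 and 2211 in the same order, of which Mpo and Ctsg made up 1615, 1009, 1039 and 1733. Without that pair it summed to 141, 110, 214 and 478. Its genes did not move together for JQ1 in LSK or for MEP against LSK under DMSO. For JQ1 in LSK 3 of 8 measured genes lay above the median gene and 5 below, as for MEP against LSK under DMSO. Camp, S100a9 and S100a8 read 1.91, 1.47 and 0.98 in the first comparison and 3.84, 3.81 and 3.13 in the second. Elane, Mpo, Prtn3, Ctsg and Lcn2 read -1.09, -0.85, -0.68, -0.58 and -1.05 in the first. In the second they read -0.27, -0.33, -0.82, -0.57 and -0.29. The bright Alas1 probe read -0.69 and -0.83. For JQ1 in MEP 9 of 11 measured granulocyte genes lay above the median gene and 2 below, with a median of 0.48. For MEP against LSK under JQ1 10 of 10 lay above it, with a median of 1.55 and 6 higher by 2-fold. The immediate early list, which responds to handling, summed to 211, 171, 579 and 199, with 16 of 17 genes lower by 2-fold after JQ1 in MEP. Macrophage genes summed to 47.0, 18.2, 15.1 and 19.1, with Mrc1, Cd5l and Siglec1 not well above background on any array and Csf1r, Adgre1, Cd68, C1qb, Spic and Vcam1 above it on all 4. Megakaryocyte genes summed to 24.6, 21.5, 119 and 112, stem cell genes to 328, 434, 176 and 195, and lymphoid genes to 451, 234, 106 and 65.3. The part of these markers in the differences of the members was not tested.

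Genes with the most similar levels over the 4 arrays were sought among 2400 genes that varied by at least 1 log2. Likeness was the root-mean-square difference of levels after each gene's mean was removed, and 4 arrays that share a slide make it a description. For the bright Alas1 probe the nearest were Prtn3 (0.012), Arvcf (0.046), Cdh6 (0.054), Gzma (0.075) and Slc25a29 (0.10). The second Alas1 probe was not ranked, and its levels varied by only 0.56 log2. Prtn3, a protease of neutrophil primary granules and one of the granulocyte markers, read 14275 in DMSO LSK, 10826 in JQ1 LSK, 10824 in DMSO MEP and 15267 in JQ1 MEP. For Tfrc they were Pgap4 (0.070), Acss1 (0.11), Dsp (0.12), Tom1l1 (0.12) and Narf (0.12). For Cpox, added after its values were seen, they were Lmna (0.038), C2cd4a (0.047), Crip2 (0.057), Vcam1 (0.065) and Myo1d (0.10). Vcam1 is one of the 12 macrophage markers and read 77.3, 94.4, 328 and 732. Alas2 was not ranked because it was above background on 1 array.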

How the data were processed

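RNA of 4 sorted samples, 20 ng each and labelled with Cy3, was hybridised to Agilent mouse arrays of design 028005 on 1 slide, per the labels' protocols. Per the file headers, scans were extracted with Feature Extraction 10.7.1.1, protocol GE1_107_Sep09, on probe positions of mm9. The deposited processed signal is a background-subtracted intensity per spot, beside its error (also an intensity) and, per the file headers, marks of another kind (well above background, saturated, outlier, control). The authors' deposited table holds a ratio, which is each array's processed signal over a constant, to within 1% for at least 99.96% of the probes compared.

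The log2 of the deposited intensity was averaged over spots without outlier marks, scaled to the array's 75th percentile over probes, and each difference was centred on the median measured gene. Probes were named through RefSeq (GRCm38.p6): 28020 had 1 symbol, 0 several and 27661 none. A gene was represented by its brightest probe. Counts use 2-fold. The files were read with pandas 2.3.3, and the normexp alternative (limma 3.58.1) used the median foreground signal and an offset of 50. Steps were tested on simulated data. The 9 members, the 15 gene lists and the naming rule were chosen with earlier results of these data known. The rule names all members, up to 6 other iron and heme genes past 2-fold per comparison, and the 5 nearest genes to Alas1, Alas2 and Tfrc. The other genes were named after their values were seen. A further gene of the pathway is not reported here. Spike-in values of ferroportin and of the Alas2 limits, and list sums without single genes, were added after the data were seen.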

Additional observations from a re-analysis of the deposited data

Results flagged for a closer look

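The bright Alas1 probe had JQ1 differences in opposite directions, lower in the LSK pair and higher in the MEP pair, 1.32 log2 apart (-0.69 and 0.63). Ferroportin (Slc40a1) did the same, 1.57 log2 apart (-0.99 and 0.58). With spike-in scaling the differences were -0.05 and 0.10 for Alas1 and -0.36 and 0.05 for ferroportin. With 1 array per group neither difference between the cell types was tested, and the second Alas1 probe read -0.37 and -0.02.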

How the results depend on the processing

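No member difference past 2-fold in the values reported changed sign under the alternatives run. Alas1 for the cell types under DMSO, at -0.83, was past 2-fold without centring (-1.05) and with median scaling (-1.15), and 0.08 with spike-in scaling. Of 284 single member differences under the alternatives, 243 moved by less than the SD between probes and 41 by more. The 1.5-fold limit adds none of these differences. Scaling without centring moves all members of a comparison by the same constant, and the authors' table is the same signal over a constant. These counts are therefore not separate checks. Of 85 counts and medians, 69 stayed close and 16 moved, as follows. Scaling to the array median without centring gave a member median of 0.22 for JQ1 in LSK and of 1.05 for JQ1 in MEP, where 5 members were past 2-fold. Spike-in scaling, from 8 probes, gave medians of 0.59 for JQ1 in LSK, -0.23 for JQ1 in MEP and 1.71 for the cell types under DMSO. It left 0 members past 2-fold for JQ1 in MEP, and 7 and 2 for the cell types under DMSO and JQ1. Members with opposite JQ1 differences numbered 1, but 2 with spike-in scaling, 2 without the background filter and 0 with the mean over probes. Without that filter 2 members were past 2-fold for JQ1 in MEP. A limit of 1.5-fold gave 1 member for JQ1 in LSK, 2 for JQ1 in MEP and 7 for the cell types under DMSO. No paired analysis was possible because the groups share a single replicate number. An additive fit of treatment and cell type over the 4 arrays was not run. With 1 array per group no array could be left out, and both comparisons with the DMSO MEP array rest on it. Counts over all genes also moved: for JQ1 in LSK 67 higher and 397 lower became 153 and 256 with median scaling, 860 and 135 with spike-in scaling and 8 and 173 with normexp correction. For JQ1 in MEP they became 3038 and 172 with median scaling and 296 and 481 under quantile normalization. Alas2 is limited by signal over background.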
